A study of Mus musculus with 22 samples.

Results

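The genes described here are the potassium channel subunit genes, the 93 genes of the mouse hypothalamus whose symbol is Kcn, a subfamily letter or letters and, except in Kcnrg, a member number, of 41456 gene IDs in the count table. Of the 93, 77 belong to pore-forming subfamilies and 16 encode auxiliary subunits or channel-interacting proteins. The rule used symbols and no measured value. RNA was taken from the hypothalamus of C57BL/6J mice, and libraries of polyadenylated RNA were sequenced. Mutant mice (PWScrm+/p−) lack the Snord116 small nucleolar RNA cluster on the chromosome from the father, and control mice (PWScrm+/p+) carry it. Mice were sampled after 6 h of sleep deprivation (SD) that ended at ZT6 (4 mutant and 4 control libraries). Others were sampled at ZT6 without it (4 mutant and 4 control libraries) or at ZT0, the start of the light period (3 mutant and 3 control libraries). The labels give neither sex nor age. They do not tie each library to an animal, so p-values measure the spread between these samples. The series asks how loss of Snord116 and SD change hypothalamic RNA.

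Potassium channels let potassium ions leave a cell and thereby hold its resting potential, end action potentials and set the pauses between them. Voltage-gated (Kcna to Kcnd, Kcnf to Kcnh, Kcnq, Kcns, Kcnv), inwardly rectifying (Kcnj), tandem-pore leak (Kcnk), sodium-activated (Kcnt) and calcium-activated (Kcnma1, Kcnn) channels are built of different subunits, while Kcnab, Kcne, Kcnip and Kcnmb proteins bind to pores and modify them. In mice, loss of Kcna2, and of the calcium-activated channel genes Kcnn2 and Kcnn3, has been tied to shortened sleep, and Kcnj10 is the main potassium channel of astrocytes.

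What nearly all pore subunits share in sequence is the selectivity filter, the short stretch that strips water from potassium ions. A search of the coding sequences for codons of threonine, then valine, isoleucine, leucine, threonine, phenylalanine, alanine or serine, then glycine, then tyrosine, phenylalanine or leucine, then glycine found a match in 66 of the 77 members of pore-forming subfamilies. All 14 Kcnk members, whose proteins have a tandem pore, held it at 2 places, so that 80 matches were found, in 68 different 15-base spellings. The pattern was not found in 11 members, 7 of the 8 Kcnh members, Kcnj14 and 3 of the Kcnn members. The filter codons of abundant members and of those that stand out in the comparisons below are shown because they are the part that makes each of them a potassium channel. Each line has 45 bases of coding strand from the GENCODE M21 transcripts, with the 15 filter bases in capitals.
Kcna2: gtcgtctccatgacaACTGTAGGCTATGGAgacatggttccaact
Kcna6: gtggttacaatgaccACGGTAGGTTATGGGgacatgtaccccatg
Kcna5: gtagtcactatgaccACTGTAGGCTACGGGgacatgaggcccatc
Kcnf1: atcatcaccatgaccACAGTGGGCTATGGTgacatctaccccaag
Kcnc1: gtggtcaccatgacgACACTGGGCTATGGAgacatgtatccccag
Kcnt1: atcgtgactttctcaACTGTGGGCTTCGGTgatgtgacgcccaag
Kcnk9, second pore: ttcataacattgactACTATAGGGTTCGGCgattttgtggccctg
Kcnj2: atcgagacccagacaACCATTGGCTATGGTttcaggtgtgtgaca
Kcnj15: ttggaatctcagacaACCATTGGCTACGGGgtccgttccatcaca
On GRCm38 these stretches lie at chr3:107105209-107105253 (plus strand), chr6:126738632-126738676 (minus), chr6:126533730-126533774 (minus), chr12:17175046-17175090 (minus), chr7:46427958-46428002 (plus), chr2:25894352-25894396 (plus), chr15:72512704-72512748 (minus), chr11:111072192-111072236 (plus) and chr16:95295965-95296009 (plus), each within 1 coding exon. Between the rectifier genes Kcnj15 and Kcnj2, 13 of the 15 filter bases and 31 of the 45 bases were the same. Among the voltage-gated genes, Kcna2 shared 12 of 15 and 31 of 45 with Kcna6, and as many with Kcnf1.

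The 21 libraries used hold 3120328 to 46965594 counts, and mutant ZT6 replicate 2, with 7348 counts, was left out. All 3 mutant ZT0 libraries and replicate 3 of mutant ZT6 stood apart. Their 7 fibroblast and meninges markers, Col1a1 among them, summed to 15990 to 33350 counts per 1000000 counts (CPM), against 100.2 to 388.9 CPM in the other 17 libraries, and their 8 neuron markers to 14.74 to 146 CPM against 2275 to 3861. The 7 hypothalamus markers summed to 4.095 to 7.727 CPM there, against 693.5 to 1960. These 4 are called collagen-rich and the 17 neural. The libraries labelled mutant SD replicate 1, control ZT6 replicate 1 and mutant SD replicate 4 held 23400, 1677 and 1169 CPM of 7 pituitary hormone markers, against 17.75 to 93.22 CPM in the other neural ones. The 18 rows of small nucleolar RNA genes from the first to the last gene named Snord116 span chr7:59861731-59904848. They had 0 counts in all 11 mutant libraries, 1 of which is the library with 7348 counts. They had counts in 9 of 11 control libraries, with 0 in replicate 4 of control SD and of control ZT6. Control SD replicates 1 and 2 and control ZT0 replicate 3 had only 1, 2 and 1 counts. The genotype labels of the control libraries at 0 to 2 counts were thus not checked by the locus. Because some control libraries are at 0 as well, a 0 in a single mutant library does not check its label either. The leading numbers of the sample titles were divided here into 3 runs, called number sets 1, 2 and 3. These hold 5, 8 and 4 of the 17 neural libraries. A gap inside set 2 is wider than the gap between sets 1 and 2, so the division is a choice. The labels do not say what these numbers mean.

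Kcnj10 was the most abundant member in every one of the 17 neural libraries by CPM. It encodes the astrocytic inward rectifier Kir4.1 and averaged 427 ± 54.64 CPM (SD, n = 17), with 362.9 CPM at the lowest, 416.9 at the median and 558 at the highest. Per kb of exon, the scale on which levels of different genes are set side by side here, it stood at 79 CPM per kb, and the next member, the Kv4-binding protein gene Kcnip4, at 19.4 CPM per kb. The 15 Kcnj members summed to 141 CPM per kb, of which Kcnj10 made 56.1%. Kcnj16, whose product Kir5.1 pairs with Kir4.1, had 15.3 CPM per kb. Of the G protein-gated rectifiers, Kcnj9 had 18.4, Kcnj3 12.6, Kcnj5 3.2 and Kcnj6 1.51 CPM per kb. The ATP-sensitive channel genes were low, Kcnj8 at 0.401 and Kcnj11 at 0.0619 CPM per kb.

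Among the voltage-gated members, Kcna6 (19.2 CPM per kb) and Kcna2 (13.6) led the Shaker-type subfamily, and Kcna1 had 2.23. The fast-spiking Kv3 channel genes Kcnc4 and Kcnc1 stood at 15.4 and 14.3 CPM per kb, and Kcnc2 at 4.65. Of the transient A-type Kv4 channels Kcnd2 had 15.2, Kcnd3 8.44 and Kcnd1 1.85 CPM per kb. Their cytosolic partners Kcnip3, Kcnip1 and Kcnip2 had 16.4, 8.82 and 8.52 CPM per kb, so that all 4 Kcnip genes were among the 20 highest members. The M-current genes Kcnq3 and Kcnq5 had 5.08 and 2.97 CPM per kb, and the ether-a-go-go-type gene Kcnh2 11.4. The Kv2 channel gene Kcnb2 stood at 1.44 CPM per kb. Silent subunits, which modify Kv2 channels, ranged widely, with Kcnf1 at 7.93, Kcnv1 at 1.34, Kcns2 at 1.19 and Kcng4 at 0.853 CPM per kb.

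Leak channels were led by Kcnk1 (17.9 CPM per kb), Kcnk2 (11.4), the acid-sensitive Kcnk9 (9.91) and its relative Kcnk3 (7.75). Sodium-activated Kcnt1 had 10.8 CPM per kb and Kcnt2 1.54. Of the calcium-activated channels, Kcnn3 had 3.57, Kcnn2 2.22 and Kcnma1, the pore of the large-conductance channel, 0.0735 CPM per kb. The large-conductance channel's auxiliary gene Kcnmb4 stood at 5.08 CPM per kb. The beta subunits of Kv1 channels, Kcnab2, Kcnab3 and Kcnab1, had 13.5, 7.76 and 3.53 CPM per kb. By mean CPM over the 17 libraries, without regard to length, 7 members were at 100 or more, 35 at 10 to 100, 28 at 1 to 10, 15 at 0.1 to 1 and 8 under 0.1. The members' CPM summed to 2443 to 2959 per library.

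**Figure D1:**
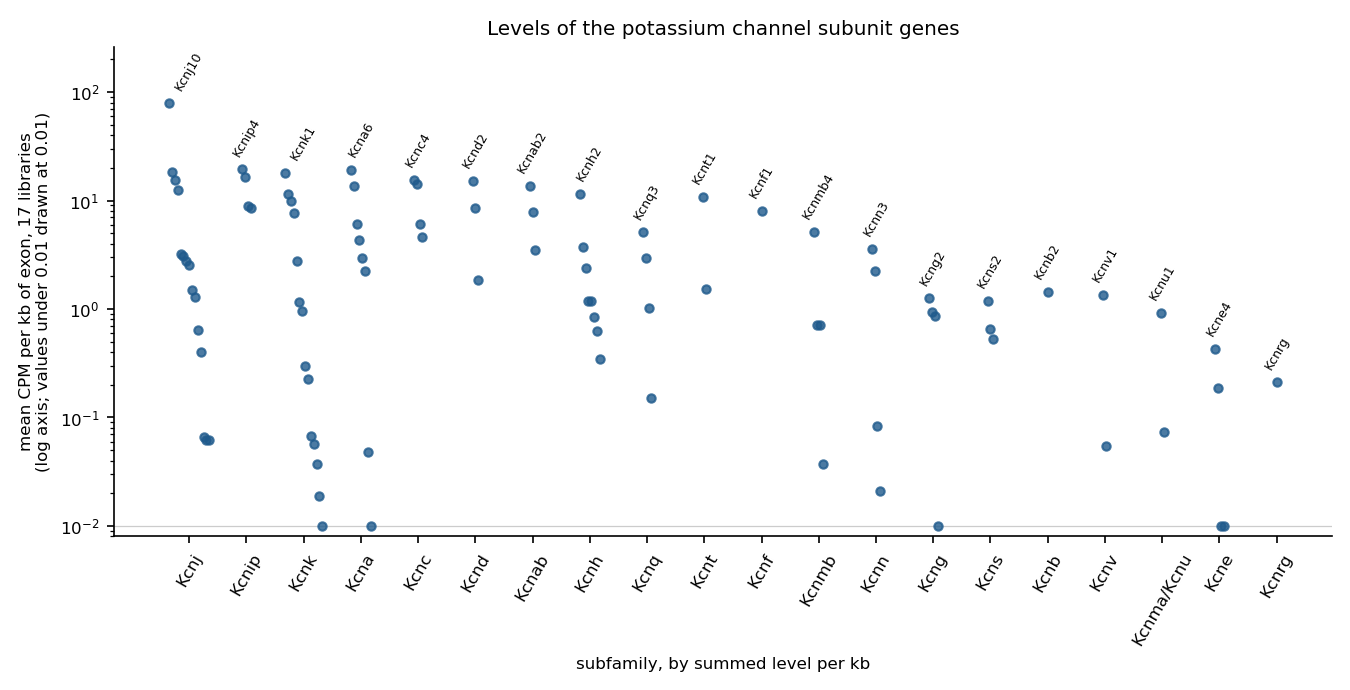
Mean level of 91 of the 93 members over the 17 neural libraries in CPM per kb of exon, on a log axis, by subfamily; each point is 1 member, the highest drawn in each subfamily is named, and the 5 members under 0.01 are drawn at 0.01. Kcnj10 stands alone at 79 CPM per kb, and the next members lie at 19.4 and below.

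Some abundant members varied little between libraries and several rare ones a lot. Over the 17 libraries the coefficient of variation was 10.9% for Kcna6, 12.8% for Kcnj10, 12.9% for Kcnd3 and 13.8% for Kcnc1. Other abundant members varied more, with 28.3% for Kcnt1 and 30.8% for Kcnq3. The coefficient was 81.8% for Kcnma1, which ran from 0.1402 to 3.986 CPM. The library labelled mutant SD replicate 1, the one with the most pituitary transcripts, held the highest values of Kcnh8 (9.638 CPM, against at most 3.713 in the other 16) and Kcna3 (11.85 CPM, against at most 10.04). Whether pituitary RNA contributes to these values was not tested. In bulk tissue, fewer cells of a type and less RNA per cell cannot be told apart.

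No potassium channel gene passed the threshold for SD. The first question of the series for these genes is whether SD against ZT6 moves them, within either genotype and on average. Of the 93 members, 84 passed the low-count filter of the 17-library fit and were tested among 21346 genes with edgeR's quasi-likelihood test, at an adjusted p (Benjamini-Hochberg over all genes) under 0.05. In control mice 0 of 84 members were called, as were 0% of all genes. At an unadjusted p under 0.05 there were 2 members, 2.38% of those tested, against 6.17% of all genes, and DESeq2 called 0 members and 18 genes. In mutant mice 0 were called, again with 0% of all genes, and 1 member (1.19%) had an unadjusted p under 0.05, against 2.16% of genes. In the mean over both genotypes 0 members were called, against 0.00468% of genes, which is 1 gene. There 1 member (1.19%) had an unadjusted p under 0.05, against 4.87% of genes. DESeq2 called 0 members in both of these as well. The median log2 fold change of the members was -0.03 in control mice, 0.07 in mutant mice and 0.02 in the mean, beside -0.02, -0.01 and -0.02 over all genes.

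Kcnf1, a silent subunit that does not form channels alone, had the smallest p in control mice. It measured 49.97, 52.28, 36.64 and 38.19 CPM in control SD libraries, against 42.66, 20.4, 22.66 and 33.53 CPM in control ZT6 libraries. The values overlap, since control ZT6 replicate 1 lies above 2 of the SD libraries. The log2 fold change was 0.56 ± 0.23 (SE), with an adjusted p of 0.732 in edgeR. Standard errors were derived from the size of the fold change and the F value of its test, so the 95% intervals built on them are approximate. In mutant mice Kcnf1 had 41.43, 38.78, 33.94 and 53.34 CPM after SD, against 34.66 and 31.49 CPM at ZT6, where mutant SD replicate 3 falls between both ZT6 values. Mutant SD replicates 1 and 4, the 2 highest there, are pituitary-rich libraries, as is control ZT6 replicate 1. The part of pituitary RNA in these Kcnf1 values was not tested. The mean log2 fold change over the genotypes was 0.44 ± 0.18 (edgeR adjusted p = 1). Within number sets 5 differences SD minus ZT6 could be formed, each with 1 or 2 libraries a side. For Kcnf1 they were, on log2 CPM, 0.30 and 0.72 in mutant mice of sets 1 and 3. In control mice of sets 1, 2 and 3 they were 0.25, 0.69 and 0.24. Kcnf1 was named for its small p in these same libraries, so the differences are no separate support. The same holds for the within-set differences of Kcna5 and Kcnj4 below.

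Kcna5, a Shaker-type pore gene, stood next in the mean over genotypes. It had 26.33, 12.03, 15.65 and 26.27 CPM in mutant SD and 19.86, 24.14, 14.73 and 28.05 CPM in control SD libraries. At ZT6 it had 12.48 and 17.65 CPM in mutant and 18.1, 13.2, 8.682 and 16.53 CPM in control libraries. The highest 5 of these 14 values were all after SD, and all in number sets 1 and 3. The lower SD libraries lie within the ZT6 range. In mutant mice the 2 high values, 26.33 and 26.27 CPM, are from pituitary-rich libraries, as is the highest ZT6 value, 18.1 CPM. The part of pituitary RNA in them was not tested. Its mean log2 fold change was 0.50 ± 0.24 (edgeR adjusted p = 1). Within sets the Kcna5 differences were 1.12 and 0.53 in mutant mice of sets 1 and 3 and 0.26, 0.38 and 0.81 in control mice of sets 1, 2 and 3. With number set as a covariate the log2 fold changes of Kcnf1 and Kcna5 were 0.52 ± 0.12 and 0.58 ± 0.14, with edgeR adjusted p of 0.137 and 0.176. The silent subunit gene Kcng4 (0.69 ± 0.30) and the G protein-gated rectifier gene Kcnj5 (0.37 ± 0.18) came next to Kcnf1 and Kcna5 in control mice without the covariate, and Kcna4, an A-type Shaker gene, had -0.30 ± 0.15 in the mean, all on the log2 scale and with edgeR adjusted p of 0.732 or more. The calcium-activated channel gene Kcnn4, also among the 5 smallest p in both, had 0 counts in most libraries, so its fitted value depends on the prior count. In the fit with the covariate 11 of the 84 members had an unadjusted p under 0.05 in the mean comparison, against 9.36% of genes, and 0 were called, against 0.0281% of genes.

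In mutant mice the smallest p belonged to Kcnq1, a cardiac and epithelial delayed rectifier gene. It had 1.813, 0.3306, 0.3161 and 0.6421 CPM after SD, against 0.1737 and 0.1409 CPM at ZT6. The ZT6 values rest on 6 and 4 counts. All 4 SD libraries lie above both ZT6 libraries, and the highest is the pituitary-rich mutant SD replicate 1. The log2 fold change was 2.28 ± 0.75 (edgeR adjusted p = 1), and without that library it was 1.39. The antisense RNA Kcnq1ot1 overlaps the gene, and a strand setting is not given in the sources used here, so reads of the pair may be mixed. Kcnh3 (1.33 ± 0.74) and Kcnj16 (-0.42 ± 0.23) were also among the 5 smallest p in mutant mice, as were Kcnk7 and Kcnk10, which are at 0 in most libraries. In this comparison of 4 libraries with 2, 5 members lay wholly above in SD (Kcnq1, Kcnh1, Kcnh6, Kcnip2 and Kcnj12) and 2 wholly below (Kcnj16 and Kcns1), against 5.05% and 4.64% of all genes, or 9.69% in either direction. In control mice, with 4 libraries against 4, no member was apart in either direction, against 1.82% of genes.

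The abundant astrocytic Kcnj10 had 394.6, 399.9, 385.3 and 450.1 CPM in mutant SD and 366.7, 443.2, 416.9 and 451.4 CPM in control SD libraries. At ZT6 it had 427.9 and 534.9 CPM in mutant and 430, 362.9, 384.5 and 558 CPM in control libraries. The ranges overlap throughout, and its mean log2 fold change had an approximate 95% interval of -0.43 to 0.11. For Kcnc1 that interval was -0.26 to 0.32. Of the members tied to sleep in mice, Kcna2 had an interval of -0.30 to 0.20, Kcnn2 of -0.10 to 0.69 and Kcnn3 of -0.44 to 0.20. Kcnn3, a small-conductance calcium-activated channel gene, had 47.1, 41.42, 36.47 and 31.57 CPM in mutant SD and 29.05, 44.24, 29.42 and 25.1 CPM in control SD libraries. At ZT6 it had 40.22 and 33.57 CPM in mutant and 37.4, 33.94, 48.1 and 36.75 CPM in control libraries. In both genotypes the Kcnn3 values overlap between SD and ZT6. Of the 70 members at a mean of 1 CPM or more, 60 (85.7%) had intervals within 2-fold either way in the mean comparison, against 82.4% of the 16590 genes at that level. For control mice alone it was 50 of 70 and for mutant mice 38 of 70. For most of these members the interval of the mean comparison thus leaves out a change of over 2-fold.

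**Figure D2:**
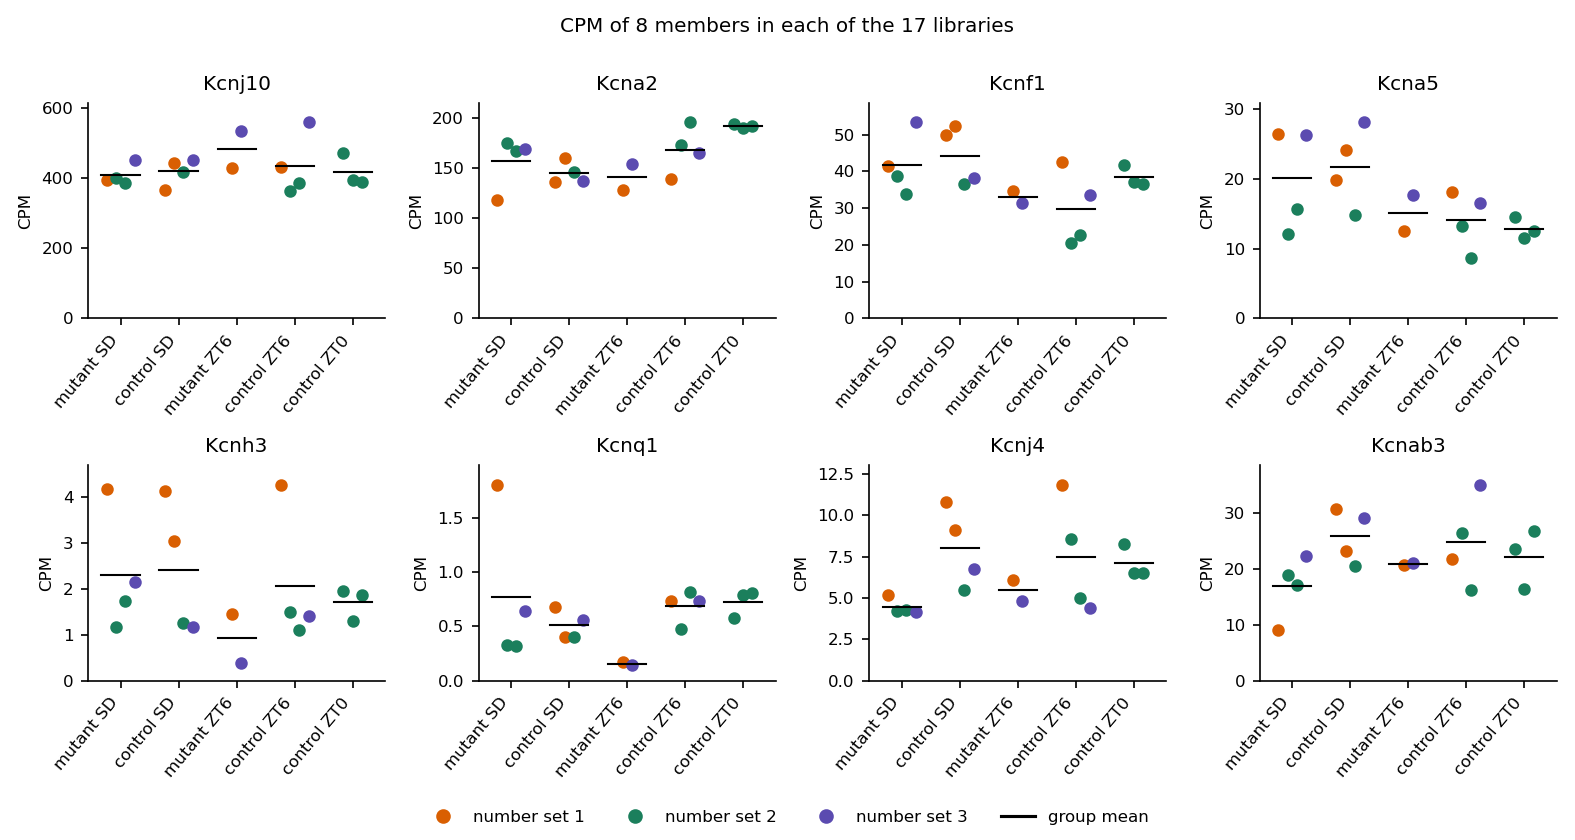
CPM of 8 members in each of the 17 neural libraries, grouped by genotype and state, with 1 point per library coloured by number set and a bar at the group mean. Kcnf1 and Kcna5 have their highest values after SD, Kcnj4 reaches at most 5.167 CPM in mutant SD libraries, and Kcnj10 overlaps in all groups.

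**Figure D3:**
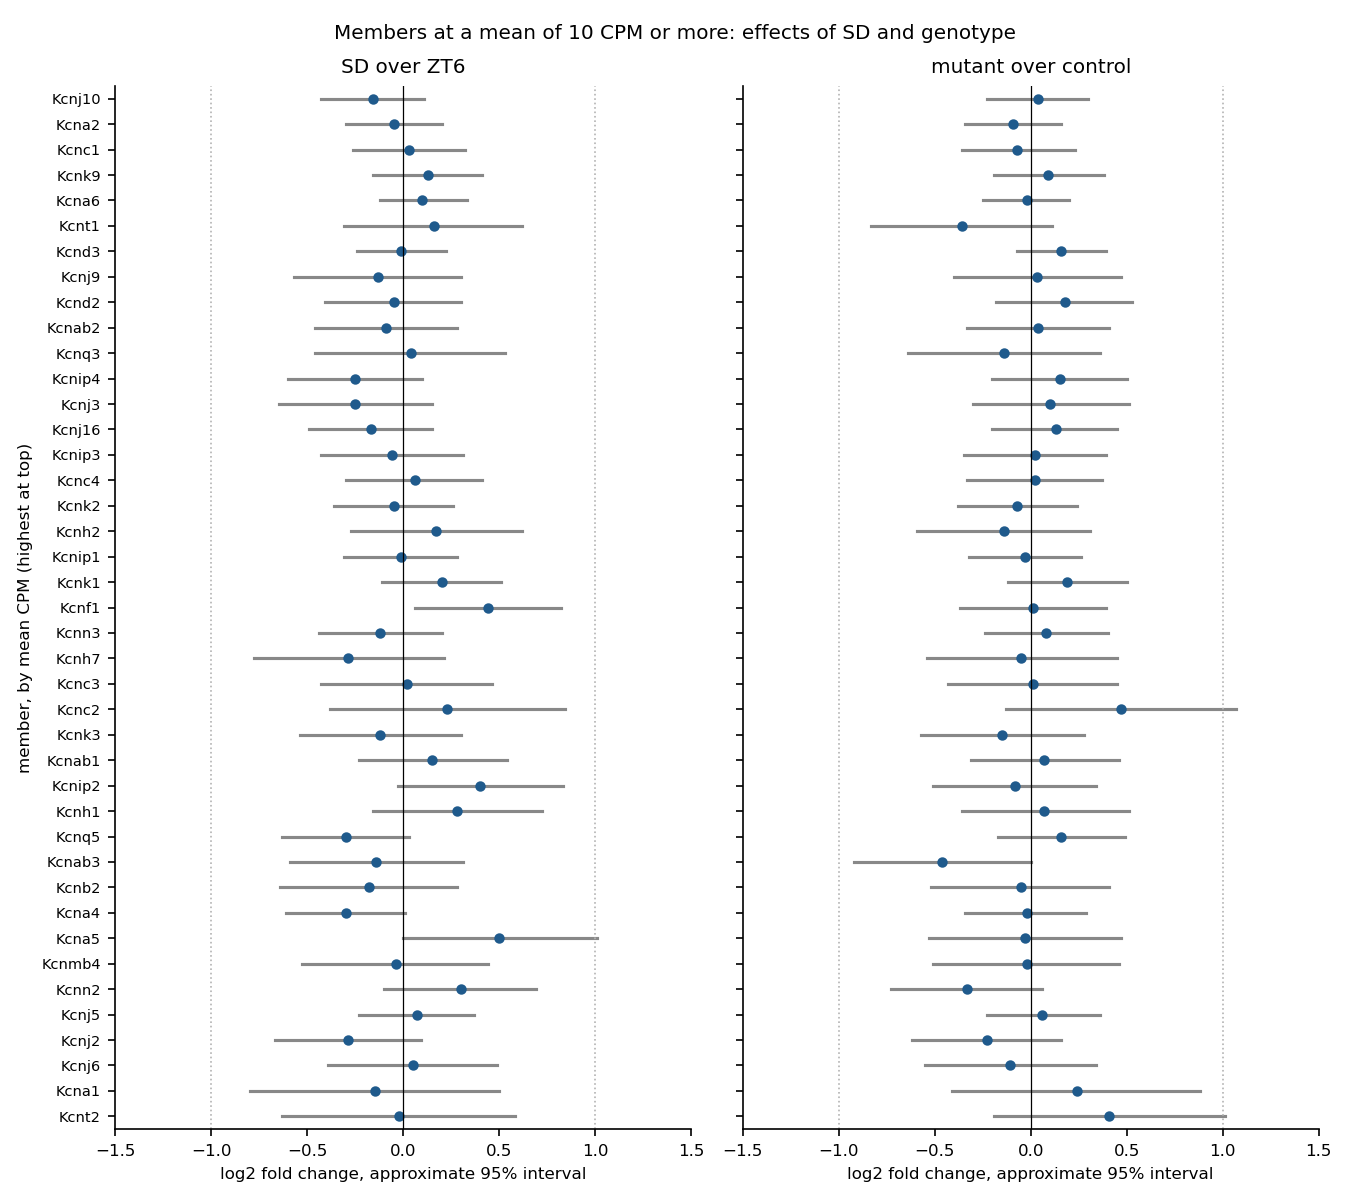
Log2 fold change with approximate 95% interval of 41 of the 42 members at a mean of 10 CPM or more, SD over ZT6 averaged over genotypes on the left and mutant over control averaged over ZT6 and SD on the right, with dotted lines at 2-fold. Point estimates lie between -0.30 (Kcna4) and 0.50 (Kcna5) on the left and between -0.46 (Kcnab3) and 0.47 (Kcnc2) on the right.

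No member passed the threshold for genotype in the neural libraries either. This comparison asks whether loss of Snord116 alters these genes at ZT6 or after SD. After SD, 0 of 84 members were called by edgeR, against 0% of genes, and 3 (3.57%) had an unadjusted p under 0.05, against 2.96% of genes. At ZT6, with 2 mutant libraries, 0 were called, against 0% of genes, and 1 (1.19%) had an unadjusted p under 0.05, against 2.65%. In the mean of both, 0 were called, against 0% of genes, with 1 member (1.19%) at an unadjusted p under 0.05, against 3.6%. DESeq2 called 0 members in all 3. The median log2 fold change of the members was -0.06 after SD, -0.12 at ZT6 and -0.03 in the mean, beside -0.02, -0.06 and -0.05 over all genes.

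Kcnj4, which encodes the strong inward rectifier Kir2.3 of neurons, had the smallest p after SD. It measured 5.167, 4.198, 4.267 and 4.173 CPM in mutant SD libraries, against 10.8, 9.119, 5.478 and 6.732 CPM in control SD libraries. Every mutant value lies below every control value, which held for 1.85% of all genes in the same direction (2.9% in either) and for no other member. The log2 fold change was -0.88 ± 0.31 (edgeR adjusted p = 0.999). At ZT6 Kcnj4 had 6.08 and 4.826 CPM in mutant and 11.86, 8.544, 4.969 and 4.417 CPM in control libraries, which overlap. Over all groups Kcnj4 averaged 8.604 CPM in set 1, 6.089 in set 2 and 5.037 in set 3. Within sets the Kcnj4 difference mutant minus control after SD was -0.94, -0.36 and -0.72 on log2 CPM in sets 1, 2 and 3.

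Kcnab3, a Kv1 beta subunit gene, had 9.067, 18.88, 17.07 and 22.26 CPM in mutant SD and 30.66, 23.14, 20.53 and 29.03 CPM in control SD libraries. Only mutant SD replicate 4 reaches into the control range. The log2 fold change was -0.66 ± 0.27 (edgeR adjusted p = 0.999). Mutant SD replicates 1 and 4, the lowest and the highest of the mutant SD values, are both pituitary-rich libraries. Without replicate 1 the value was -0.43. The part of pituitary RNA in these Kcnab3 values was not tested. At ZT6, 2 members lay wholly above in mutant libraries (Kcnj5 and Kcnd3) and 4 wholly below (Kcnq1, Kcnh4, Kcne2 and Kcnj8), against 2.7% and 3.41% of genes, or 6.11% in either direction, with 2 libraries against 4. Kcnq1 had the smallest p of these, with a log2 fold change of -2.13 ± 0.75 (edgeR adjusted p = 0.999). The strong inward rectifier gene Kcnj12 (-0.45 ± 0.25), Kcnj5 (0.36 ± 0.22), Kcnh3 (-1.22 ± 0.74) and Kcnj16 (0.38 ± 0.23) followed on the log2 scale. After SD, the mechanosensitive leak channel gene Kcnk4 (-0.96 ± 0.45) and Kcng4 (-0.61 ± 0.30) followed Kcnj4 and Kcnab3, beside the sparse Kcnk7. In the mean of ZT6 and SD the 5 smallest p belonged to Kcnj4 (-0.68 ± 0.25), Kcnab3 (-0.46 ± 0.22), Kcnj12 (-0.31 ± 0.16), Kcnk4 (-0.65 ± 0.36) and Kcnn2 (-0.33 ± 0.19). None of these was called, and the smallest edgeR adjusted p among them was 0.942.

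The difference between the SD effects of the genotypes was tested as an interaction. There 0 of 84 members were called by edgeR and 0 by DESeq2, against 0% of genes in edgeR, and 4 (4.76%) had an unadjusted p under 0.05, against 2.48% of genes. They were Kcnq1 (2.71 ± 0.91 on the log2 scale), Kcnk7, Kcnma1 (2.87 ± 1.24) and Kcnj5 (-0.60 ± 0.28), all at an edgeR adjusted p of 1. Kcnma1 had 3.006, 0.6611, 1.106 and 2.354 CPM in mutant SD and 0.2014, 1.515, 1.014 and 0.1402 CPM in control SD libraries. At ZT6 it had 1.042 and 0.2114 CPM in mutant and 1.548, 0.72, 3.986 and 1.138 CPM in control libraries. Values of Kcnma1 within each group thus differed several-fold. Kcnk7 had 0 counts in 11 of the 17 libraries, so its fitted value depends on the prior count.

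Time of day could be followed in control mice only, because all mutant ZT0 libraries are collagen-rich. For ZT6 against ZT0, 0 of 84 members were called by edgeR, against 0% of genes, and 0 had an unadjusted p under 0.05, against 3.25% of genes. SD libraries differ from ZT0 libraries in time of day and in SD, which cannot be told apart there. For SD against ZT0, 0 were called, against 0% of genes, and 5 (5.95%) had an unadjusted p under 0.05, against 7.31%. DESeq2 called 0 members in both. Kcna2 had 136.1, 160.6, 146.6 and 137.2 CPM in control SD libraries, against 194.4, 190.2 and 192.4 CPM at ZT0. No value overlaps, and control ZT6 libraries spread over both ranges with 139.7, 173, 195.9 and 165 CPM. The log2 fold change of Kcna2, SD over ZT0, was -0.41 ± 0.16 (edgeR adjusted p = 0.644). All 3 control ZT0 libraries belong to number set 2, where the single control SD library, at 146.6 CPM, is also below them. Beside it and the sparse Kcnk7, Kcng4 (0.82 ± 0.32), Kcnk4 (1.27 ± 0.50) and Kcna5 (0.76 ± 0.32) had the smallest p on the log2 scale. For ZT6 against ZT0 the smallest p included those of Kcnk4 (0.98 ± 0.50), Kcnj12 (0.38 ± 0.21) and Kcnd3 (-0.23 ± 0.15), with edgeR adjusted p of 0.96 or more. In SD against ZT0, altogether 5 members lay wholly above in SD (Kcng4, Kcna5, Kcnj14, Kcnk2 and Kcnab2) and 6 wholly below (Kcnk7, Kcna2, Kcnip4, Kcnq3, Kcnd3 and Kcnh8), against 9.86% and 6.33% of genes, or 16.2% in either direction. For ZT6 against ZT0, Kcnj8 lay wholly above and Kcnd3, Kcnab1, Kcnj5 and Kcnrg wholly below, against 1.86% and 2.72% of genes, or 4.58% in either direction.

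Where no member was called for state or genotype, 23 were for number set. With set as a term beside the groups, 27.4% of the 84 members passed edgeR's test, against 26.8% of all genes, so the share of members is that of the table. Among channels gated by G proteins, Kcnj9 had 80.0 CPM in set 1, 63.15 in set 2 and 109.1 in set 3 (adjusted p = 0.00101), and its 4 values in set 3, 108.9, 113.3, 102 and 112.2 CPM, lie above all 13 others. Kcnj3 had 50.81, 65.26 and 85.49 CPM (adjusted p = 0.00159). Kcnh3, an ether-a-go-go-type gene, had 3.409, 1.481 and 1.275 CPM (adjusted p = 0.000583), and Kcna5 had 20.18, 12.85 and 22.13 CPM (adjusted p = 0.00537). Kcnf1 and the Kv4 partner genes Kcnip2, Kcnip3 and Kcnip4 were among the 23 as well. The sets hold unequal numbers of each group, and what differs between them besides the numbers is not stated in the labels.

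**Figure D4:**
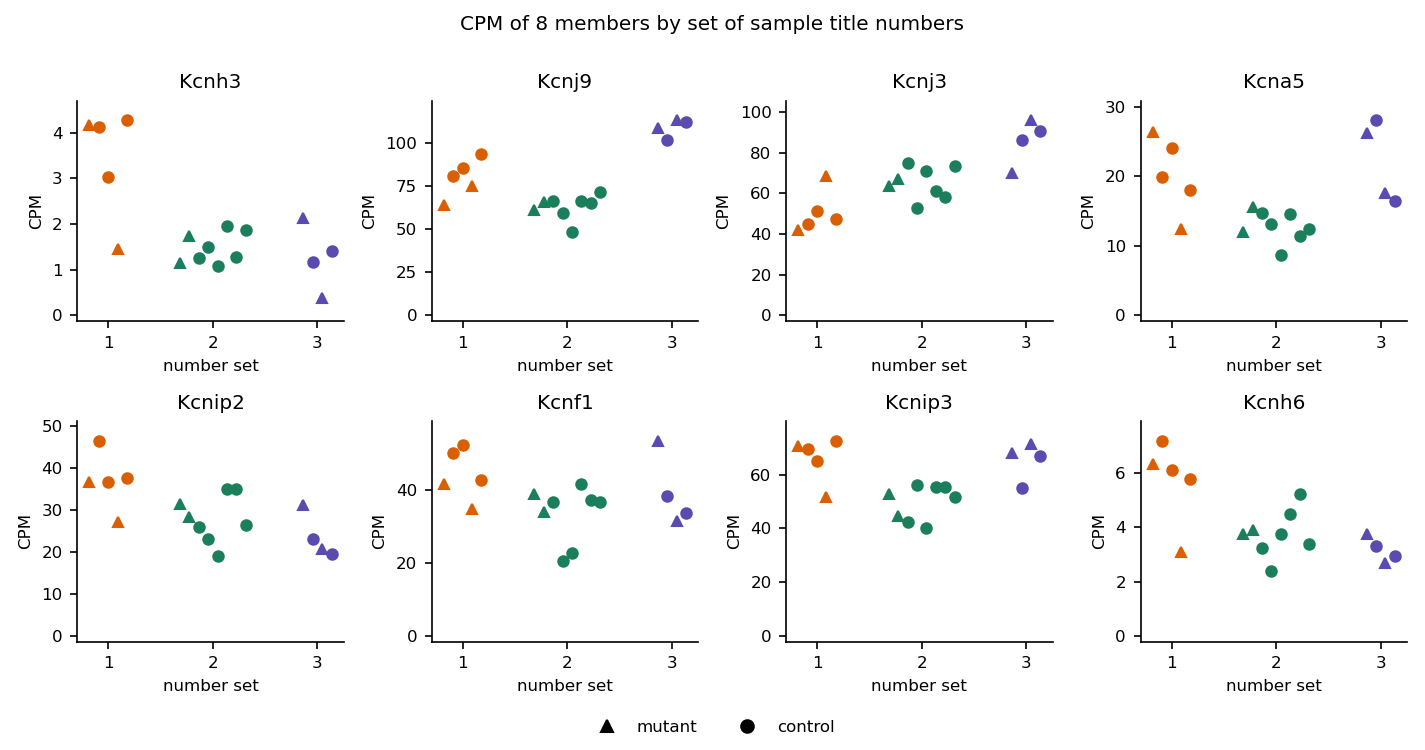
CPM of 8 members among those with the smallest p for number set, by set (1 to 3), with 1 point per neural library, triangles for mutant and circles for control mice. Kcnj9 is highest in all 4 libraries of set 3, and Kcnh3 reaches over 3 CPM only in set 1.

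Of 17 fixed partner genes that are not members, 16 were tested, and edgeR called 0 of them in all 9 comparisons above, with 0 at an unadjusted p under 0.05. They were listed for the channels they bind. Dpp6, the Kv4 partner, averaged 366.9 ± 33.06 CPM (29.7 CPM per kb), and the Kv1-clustering genes Adam22 and Cntn2 averaged 197.5 ± 37.03 and 156.5 ± 18.98 CPM (SD, n = 17). The sulfonylurea receptor gene Abcc8, partner of Kcnj11, averaged 6.579 ± 2.874 CPM.

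In mutant against control mice at ZT0, 65 members were lower, 2 were higher and 17 were not called, of 84 tested in a fit of 20 libraries. Of 21746 genes, 31.3% were called lower and 22.7% higher by edgeR. The 3 mutant ZT0 libraries are collagen-rich and the 3 control ones are not, so genotype and whatever sets the collagen-rich libraries apart cannot be told apart. The median log2 fold change of the members was -5.48, or -4.98 with members at 0 in all mutant ZT0 libraries put at their bound, beside -0.30 over all genes. Kcna2 had 0.3594, 0.6961 and 1.075 CPM in mutant ZT0, against 194.4, 190.2 and 192.4 CPM in control ZT0 libraries (log2 fold change -8.27 ± 0.32, edgeR adjusted p = 1.25e-12). Kcnj10 had 0.9884, 0.2457 and 0 CPM in mutant ZT0, against 469.9, 393.9 and 388.9 CPM in control ZT0 libraries (-9.78 ± 0.49, adjusted p = 1.71e-11). Kcnj10 rests there on 11, 6 and 0 counts. The leak channel gene Kcnk9 (3, 6 and 0 counts) and the A-type gene Kcnd3 (5, 9 and 0 counts) differed by -9.11 ± 0.38 and -7.97 ± 0.34 on the log2 scale. Kcnc4 and Kcnt1 had 1 and 2 counts over the 3 mutant ZT0 libraries, too few to give their fold a size. The fast-spiking gene Kcnc2 had no count in any mutant ZT0 library and was at least 408-fold lower, and the Shaker-type gene Kcna1 at least 145-fold, with a floor of 3 counts over the group, which covers counting error only. In all, 23 members were at 0 in all mutant ZT0 libraries, 17 of them tested.

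Taking all 4 collagen-rich libraries, including mutant ZT6 replicate 3, 62 of the 93 members were below the lowest of the 17 neural libraries in each of the 4, 2 were above the highest, and 29 overlapped. Of all 41456 gene IDs, 12.2% were below in this way, 8.49% were above, and 20.6% were either. Of the 70 members at a neural mean of 1 CPM or more, 61 (87.1%) were below, against 28.3% of 16590 genes at that level. Their median level was 1.65% of the neural mean, against 84.7% over those genes. No test was made, because the 4 libraries were set apart by their values. The members' CPM summed to 188.6 to 290.9 in the 4, against 2443 to 2959 in the 17. The abundant neural members Kcnj10, Kcna2, Kcnc1, Kcnk9, Kcna6 and Kcnt1 had at most 3.224 CPM in any of the 4, a value reached by Kcnc1 in mutant ZT0 replicate 3, the shallowest.

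Which members remained was a short list: 17 were at 1 CPM or more in at least 3 of the 4. Kcnj15, an inward rectifier gene (Kir4.2) of the same subfamily as Kcnj10, had 40.88, 82.34 and 79.16 CPM in mutant ZT0 and 116.2 CPM in mutant ZT6 replicate 3. In the neural libraries it had 0.1007 CPM at the lowest, 0.3306 at the median and 1.037 at the highest. Kcne4, an auxiliary subunit that inhibits Kv1 and Kcnq1 channels, had 6.11, 36.44, 37.61 and 34.11 CPM in the same order, against 0.3347, 1.057 and 2.688 CPM. Both stood above all 17 neural libraries in all 4. Both were the members called higher at ZT0, by 6.83 ± 0.71 and 4.51 ± 0.76 on the log2 scale (edgeR adjusted p = 1.99e-07 and 6.23e-05). That comparison holds 3 of these same 4 libraries, so the calls are no separate support. Kcnj15 exceeded Kcnj10 in each of the 4 libraries and Kcnj10 exceeded Kcnj15 in each of the 17.

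Because Kcnj15 and Kcne4 were high in the same libraries, their promoters are shown, from 250 bases before to 50 after the RefSeq gene start (GRCm38.p6), at chr16:95257308-95257607 and chr1:78816661-78816960, both on the plus strand. Capitals mark matches on either strand of TATAAA, of TGANTCA (the AP-1 motif) or of TGACGTCA (the cAMP response element).
Kcnj15: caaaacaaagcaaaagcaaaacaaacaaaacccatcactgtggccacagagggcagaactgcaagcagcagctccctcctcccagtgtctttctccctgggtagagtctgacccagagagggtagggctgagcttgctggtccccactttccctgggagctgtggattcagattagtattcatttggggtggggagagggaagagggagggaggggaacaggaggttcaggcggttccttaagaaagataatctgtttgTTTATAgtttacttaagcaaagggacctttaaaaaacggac
Kcne4: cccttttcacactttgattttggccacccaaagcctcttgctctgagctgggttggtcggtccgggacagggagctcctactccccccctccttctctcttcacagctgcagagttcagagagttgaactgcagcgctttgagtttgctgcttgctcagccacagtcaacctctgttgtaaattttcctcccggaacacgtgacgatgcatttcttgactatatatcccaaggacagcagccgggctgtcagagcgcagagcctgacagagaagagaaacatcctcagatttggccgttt
Kcnj15 has 1 match, TATAAA on the minus strand within the 50 bases after the start, and 2 CG pairs. Kcne4 has no match and 9 CG pairs. TATAAA occurred in 13.6% of all 32851 promoters of the table, TGANTCA in 7.81% and TGACGTCA in 1.79%, and the median promoter had 7 CG pairs. Promoters of 68 of the 93 members were in the table, 93 promoters in all, and 5.38%, 4.3% and 0% of them held the 3 motifs.

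Some rectifier genes that share a chromosome had unlike levels in the collagen-rich libraries, but others did not. Kcnj9 (chr1:172320501-172329318) and Kcnj10 (chr1:172341210-172374085) were both low there, at most 0.3582 and 1.153 CPM. Their neural ranges were 48.6 to 113.3 and 362.9 to 558 CPM. Kcnj2 (chr11:111066164-111076821) was at 7.907, 20.92, 17.55 and 20.96 CPM in the 4 collagen-rich libraries, which overlaps with 8.133 to 19.98 CPM in the neural ones. Kcnj16 beside it (chr11:110968033-111027968) had at most 1.433 CPM, against 43.1 to 84.75. Likewise Kcnj6 (chr16:94748636-94997701), on the same chromosome as Kcnj15 (chr16:95257558-95300260), had at most 0.4748 CPM in the 4, against 7.962 to 19.27 CPM. Kcnab1 overlapped with 59.21, 20.96, 27.94 and 51.07 CPM against 18.37 to 42.54, and the A-type channel gene Kcnd1 with 10.24, 7.125, 12.54 and 13.5 CPM against 4.227 to 13.83. Kcnj8, the vascular ATP-sensitive channel gene, had 0.4493, 4.545, 6.805 and 4.476 CPM against 0 to 2.347, and its partner Abcc9 was the partner gene not called at ZT0 (-0.50 ± 0.50, edgeR adjusted p = 0.421), while the other 15 were called lower. Endothelial and pericyte markers summed to 305.6 to 413.7 CPM in the 4, against 142.8 to 286 CPM in the 17. Their part in the Kcnj8 values was not tested.

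The 4 collagen-rich libraries also differed among themselves. Kcnf1 had 7.637 and 29.15 CPM in mutant ZT0 replicates 1 and 2, and 0.3582 and 0.3391 CPM in mutant ZT0 replicate 3 and mutant ZT6 replicate 3. The first 2 belong to number set 1 and the other 2 to set 2. The leak channel gene Kcnk2 had 18.78 CPM in mutant ZT0 replicate 1 and 2.825 to 5.373 CPM in the other 3, all below the neural range of 44.66 to 80.83 CPM. Kcnd2, Kcnip3, Kcna4, Kcnq5, Kcnh1, Kcnmb4, Kcnn3, Kcnj4, Kcnt2 and Kcnk6 make up the rest of the 17, and of these 10 only Kcnk6 overlapped with its neural range.

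**Figure D5:**
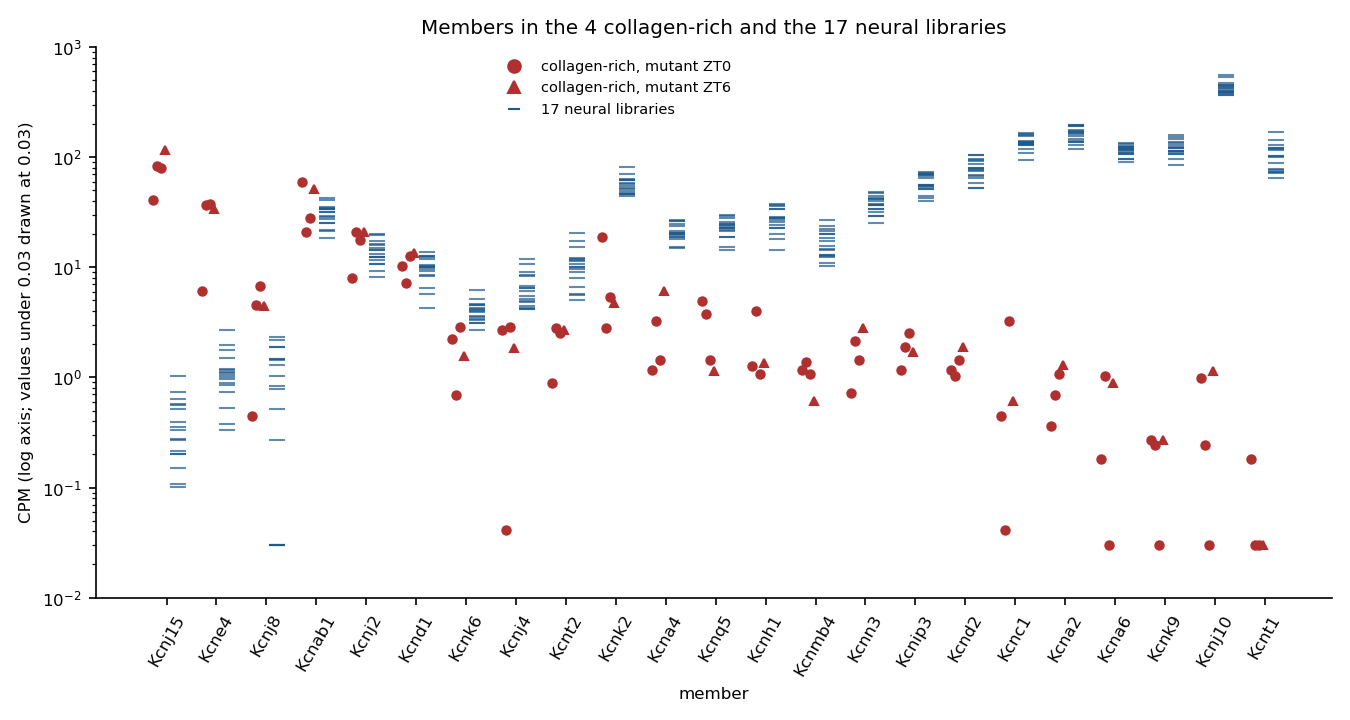
CPM on a log axis of 23 members in the 4 collagen-rich libraries (red, circles for mutant ZT0 and a triangle for mutant ZT6 replicate 3) and in the 17 neural libraries (blue dashes), with values under 0.03 drawn at 0.03. Kcnj15 and Kcne4 lie above the neural range in all 4, and the abundant neural members at the right lie far below it.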

How the data were processed

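Per the labels, RNA was taken up in Trizol and sequencing on a NovaSeq system followed TruSeq polyA library preparation. Per the submitters' processing notes, reads were checked with FastQC, trimmed with Trimmomatic 0.38 and quantified with kallisto 0.44.0. Per gene, the deposited values are expected counts as kallisto estimates them, summed with tximport per the labels, whole and not normalised. Of 41461 lines, 5 repeated a gene ID and were dropped. The authors built their index from EnsDb.Mmusculus.v79, per the labels, and coordinates here are GRCm38 (GENCODE M21). A value of 0 allows up to 3 counts, 0.0639 to 0.961 CPM in the 21 libraries.

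The main test was edgeR's quasi-likelihood test (version 4.0.16 under R 4.3.3, two-sided), after TMM scaling and filterByExpr (min.count 10, min.total.count 15). The 17 neural libraries entered 1 model with 5 groups. For ZT0 between genotypes a fit of 6 groups over 20 libraries was used. P-values were adjusted over all genes of a fit. The 9 members below the filter are Kcna10, Kcna7, Kcne1, Kcne3, Kcng3, Kcnk15, Kcnk16, Kcnk18 and Kcnmb3. CPM are TMM-scaled over the 21 libraries, overlap between groups was read on them, and CPM per kb divide by the union of exons. Filters and motifs were searched with Biopython 1.88. Named in each comparison are called members (at most the 10 largest changes a direction), the 5 smallest p where fewer than 5 are called, and fixed members, partners and residual members. Comparisons of number sets, and the genes named for them, came from the results. Members, lists and tests were chosen with earlier results of these data known. Some items are not reported here. Scripts were checked on simulated counts.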

Additional observations from a re-analysis of the deposited data

Results flagged for a closer look

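In groups of 4 neural libraries, the members at a mean of 1 CPM or more and the members' sum were screened for a library whose gap to the nearest of the others exceeds Dixon's critical share of the group's range at the 95% level. Of 210 groups screened, 11 had such a library, and chance gives about 1 in 20. The library labelled mutant SD replicate 1 gave 4 of the 11, with Kcna2 at 118 CPM against 167.4 to 175.3, Kcnh6 at 6.334 against 3.745 to 3.911, Kcnh8 at 9.638 against 1.659 to 2.215, and Kcnj4 at 5.167 against 4.173 to 4.267. It is the library richest in pituitary transcripts (23400 CPM), whose part in these values was not tested. Mutant SD replicate 4 had Kcnj9 at 108.9 CPM against 61.06 to 65.7 and Kcnn2 at 24.77 against 12.52 to 14.14. For Kcnj9 the other libraries of number set 3, to which it belongs, hold 102 to 113.3 CPM.

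Control ZT6 replicate 3 had Kcnb2 at 41.5 CPM against 17 to 18.58, and Kcnmb1 at 5.296 against 2.008 to 2.496. Control ZT6 replicate 1 had Kcnh3 at 4.266 CPM against 1.092 to 1.488 and Kcnn2 at 13.12 against 17.07 to 17.53. In control ZT6 replicate 2 the sum of the members was 2443 CPM, against 2741 to 2795.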

How the results depend on the processing

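The count of members called stayed at 0 in the 9 comparisons of the neural libraries under DESeq2 1.42.0, RLE factors, no filter on low counts, number set as a covariate, the 2-fold limit, a fit of 21 libraries or of the compared groups only, and without the 4 libraries with index numbers 43 to 46 in their titles, the 3 pituitary-rich libraries or any 1 library. At ZT0 it was 62 to 68, against 67. Named members kept their side of the threshold throughout. Of uncalled values, 8 changed sign or went to 0, for Kcnn4, Kcnk10, Kcnj16, Kcnj5 and Kcnk4, and the cause was not tested. The members' sum averaged 2718 CPM with TMM factors and 2873 CPM without. Number set together with leaving out the pituitary-rich libraries was chosen after seeing the data, and gave 65 calls at ZT0 and 0 elsewhere. No paired analysis was possible because replicate numbers were given in accession order and only name samples. Kcnq1, Kcnma1 and other members near 1 CPM or below are limited by their few counts, and mutant ZT6 by its 2 neural libraries. Why the counts of these members are low was not tested.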
